A study of Mus musculus with 8 samples.

Results

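The genes described here are 8 matricellular protein genes (Tnc, Postn, Thbs1, Thbs2, Thbs3, Thbs4, Sparc and Ccn2) and the fibronectin gene Fn1. They were chosen by name, with earlier results of these data known, so their counts beside shares of all genes are descriptions. Each was read from the probe set annotated with that symbol alone. All 9 were found, among 19938 genes with such a probe set, and each had 1 probe set. Hearts came from C57Bl6 mice aged 9 weeks, and their RNA was measured on Affymetrix arrays. The mice were wild type (WT) or homozygous for S105A, which replaces a serine of the cardiac transcription factor GATA4 by alanine. Mice of each genotype were left untreated, as the titles put it, or received PE, which the labels spell out as pseudoephedrine, an adrenergic stimulus. Osmotic pumps delivered PE under the skin over 5 days, at a daily dose of 100 mg per kg, and saline is named in the protocol as its alternative. Each group held 2 arrays from separate animals: arrays 1 and 2 for WT untreated, arrays 3 and 4 for WT with PE, arrays 5 and 6 for S105A untreated, and arrays 7 and 8 for S105A with PE. The titles name whole heart and the tissue field ventricle, so the share of atrial and valve tissue is not known. The question was which genes depend on treatment and which on genotype.

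Matricellular proteins are secreted into the extracellular matrix, where they act on cells through integrins and other receptors and on growth factors rather than as the main load-bearing fibres. Many are described as low in the resting adult heart and as made again by fibroblasts, and by some muscle and immune cells, during injury or pressure overload. Fibronectin is the adhesive glycoprotein of the early repair matrix, on which collagen fibrils assemble.

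Promoters of members with large and small PE differences are shown to let their sequences be set beside the values. RefSeq windows on mouse assembly GRCm38.p6, from 250 bases before to 50 bases after a gene's start, were held for 6 of the 9 genes (Tnc, Postn, Thbs2, Thbs3, Thbs4 and Sparc), with 8 windows in all. The windows of Tnc (chr4:64046887-64047186, minus strand) and Postn (chr3:54360857-54361156, plus strand) belong to the members with the largest differences between PE and untreated hearts when the genotypes are averaged; in WT alone Thbs1 and Fn1 lay above Postn. Those of Thbs4 (chr13:92794769-92795068, minus strand) and Thbs2 (chr17:14694213-14694512, minus strand) belong to thrombospondins with a large and a small difference. Each is written 5′ to 3′ along its gene, and capitals mark matches, on either strand, to the motifs named after the sequences.
Tnc: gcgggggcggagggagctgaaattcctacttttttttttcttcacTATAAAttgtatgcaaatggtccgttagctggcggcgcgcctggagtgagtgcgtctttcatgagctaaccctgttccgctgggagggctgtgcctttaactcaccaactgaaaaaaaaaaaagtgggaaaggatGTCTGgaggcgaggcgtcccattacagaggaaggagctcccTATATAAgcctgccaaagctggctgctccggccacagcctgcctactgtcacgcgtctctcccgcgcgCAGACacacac
Postn: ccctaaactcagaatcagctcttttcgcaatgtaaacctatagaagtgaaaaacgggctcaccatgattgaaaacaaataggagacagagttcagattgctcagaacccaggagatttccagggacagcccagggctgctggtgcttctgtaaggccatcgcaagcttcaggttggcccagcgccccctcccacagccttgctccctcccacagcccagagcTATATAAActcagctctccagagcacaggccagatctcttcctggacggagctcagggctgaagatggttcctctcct
Thbs4: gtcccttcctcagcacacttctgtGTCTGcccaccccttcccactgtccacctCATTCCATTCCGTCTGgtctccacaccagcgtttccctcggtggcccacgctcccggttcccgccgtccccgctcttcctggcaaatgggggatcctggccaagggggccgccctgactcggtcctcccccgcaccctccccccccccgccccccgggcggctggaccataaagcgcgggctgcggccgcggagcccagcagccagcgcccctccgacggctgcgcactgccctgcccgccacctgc
Thbs2: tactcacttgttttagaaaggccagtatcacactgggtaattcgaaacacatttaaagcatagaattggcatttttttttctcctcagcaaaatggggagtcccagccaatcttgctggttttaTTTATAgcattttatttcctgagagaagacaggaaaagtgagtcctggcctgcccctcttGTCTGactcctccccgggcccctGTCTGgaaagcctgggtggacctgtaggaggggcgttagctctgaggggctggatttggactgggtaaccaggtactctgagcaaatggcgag

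The 8 motifs searched on both strands were GGAATG (the TEAD core), CAGAC (a SMAD-binding element), TGANTCA for AP-1, AGATAA and TGATAA for GATA factors, TATAAA and TATATAA for the box at core promoters, and the serum response factor's CArG box. Tnc and Postn had 2 windows each, and the windows not printed held no TATATAA. The printed windows of Tnc and Postn held a TATATAA that began at -29 and -28 from the start, and in Postn it overlapped a TATAAA at -26. The printed window of Tnc also held a TATAAA at -205. The other window of Tnc had a TATAAA at -126, and the other window of Postn had none. Thbs2, with a small PE difference, had a TATAAA match on the opposite strand (TTTATA) at -126. TATATAA occurred in 3.24% and TATAAA in 13.6% of all 32851 windows of this length. The Thbs4 window had TEAD matches at -197 and -192, which share a base, and the other member windows had none. GGAATG occurred in 14.7% of all windows. CAGAC occurred in 49.6% of all windows and was matched in windows of Tnc, Postn, Sparc, Thbs2 and Thbs4. In Postn the match, at -191, lay in the window that is not printed. The AP-1 motif, both GATA motifs and the CArG box, with shares of 7.81%, 11.2% (AGATAA), 9.05% (TGATAA) and 1.63% of all windows, were not matched in the 8 member windows. In the Thbs3 window no motif of the 8 was matched. A match is a run of letters and not a measured binding site.

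Values are log2 expression levels that the authors computed with RMA, so a difference of 1 is a doubling. Array medians lay between 6.18 and 6.23. On the first principal component of all genes, which held 69.5% of the variance, PE arrays 3 (at 53.3) and 7 (at 25.1) stood apart from the other PE arrays (-0.415 and -5.00) and from the untreated arrays (-20.8 to -16.1). Results that rest on these arrays are given with and without them. The 10 cardiomyocyte markers, Myh6 and Tnnt2 among them, were all measured, and their summed level on the linear scale was 125328 to 126976 in the untreated arrays. The WT PE arrays 3 and 4 had 101485 and 124523, and the S105A PE arrays 7 and 8 had 119871 and 123418. The number of arrays limits the precision.

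**Figure D1:**
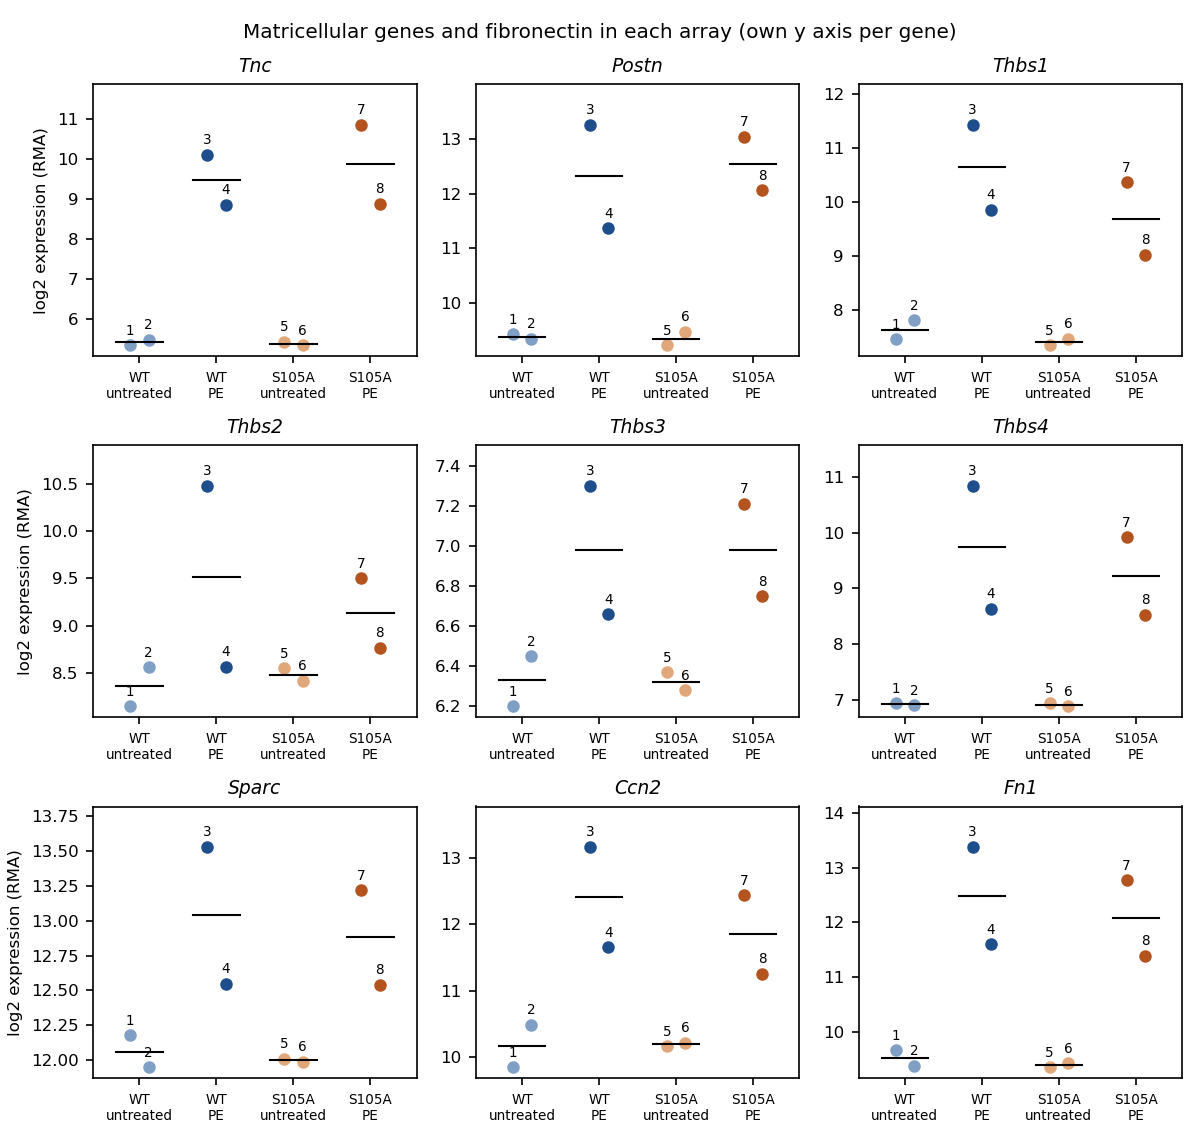
Log2 expression (y axis, RMA values, a separate scale for each gene) of the 9 genes in the 4 groups (x axis). Points are single arrays with their numbers and bars are means of 2 arrays; in every panel the 4 PE arrays lie above the 4 untreated arrays, although array 4 and array 2 are level in Thbs2, and arrays 3 and 7 lie above arrays 4 and 8.

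Tnc encodes tenascin-C, a large glycoprotein that loosens cell adhesion and marks sites of active matrix remodelling. Its level was 5.33 and 5.47 in the WT untreated arrays 1 and 2, and 10.12 and 8.86 in the WT PE arrays 3 and 4. In S105A it was 5.42 and 5.33 in the untreated arrays 5 and 6, and 10.87 and 8.89 in the PE arrays 7 and 8. The untreated hearts lay within 0.14 log2 units of each other, and the lowest PE array was 3.39 units above the highest of them. The difference was 4.09 in WT (SE 0.65, 17.0-fold) and 4.50 in S105A (SE 0.65, 22.7-fold). The untreated level was below the array medians, where values run close to an unmeasured floor. For every other member the untreated group means lay above these medians. Tnc had the fourth smallest p value of the 19938 genes in the PE effect averaged over the genotypes, at 4.30 log2 units (95% interval 3.21 to 5.38).

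Postn encodes periostin, a secreted protein of activated fibroblasts that binds integrins and takes part in collagen crosslinking. It read 9.43 and 9.35 in arrays 1 and 2, 13.26 and 11.37 in arrays 3 and 4, 9.23 and 9.48 in arrays 5 and 6, and 13.04 and 12.06 in arrays 7 and 8. All PE hearts were at least 1.89 units above all untreated hearts. The PE difference was 2.92 in WT (SE 0.59, 7.59-fold) and 3.20 in S105A (SE 0.59, 9.19-fold). Tnc and Postn were the members whose estimate was the larger in S105A, although the difference between genotypes was within its error for both.

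Thrombospondins are multidomain calcium-binding glycoproteins. Thbs1 and Thbs2 form the subgroup that inhibits blood vessel growth through the receptor CD36, and thrombospondin 1 also activates latent TGF-beta. Thbs3 and Thbs4 belong to the subgroup that lacks those domains, and Thbs4 is known in heart muscle for a role in the stress response of the endoplasmic reticulum.

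For Thbs1 the levels were 7.46 and 7.81 in the WT untreated arrays and 11.44 and 9.86 in the WT PE arrays 3 and 4. In S105A they were 7.35 and 7.47 without PE, and 10.37 and 9.03 in arrays 7 and 8. The PE and untreated hearts did not overlap, and array 3 was the highest. The difference was 3.02 in WT (SE 0.58, 8.10-fold) and 2.29 in S105A (SE 0.58, 4.89-fold).

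Thbs2 was 8.15 and 8.56 in arrays 1 and 2, 10.48 and 8.57 in arrays 3 and 4, 8.55 and 8.42 in arrays 5 and 6, and 9.50 and 8.77 in arrays 7 and 8. Array 4 was level with the highest untreated heart, so the WT difference of 1.17 (SE 0.58, 2.24-fold) came almost wholly from array 3. In S105A the difference was 0.65 (SE 0.58, 1.57-fold). Both 95% intervals crossed 0 (-0.20 to 2.54 in WT and -0.72 to 2.02 in S105A), which held for no other member. Without arrays 3 and 7 the differences were 0.21 and 0.28.

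Thbs3 was at 6.20 and 6.45 in the WT untreated arrays, 6.66 to 7.30 in the WT PE arrays, 6.28 to 6.37 in the S105A untreated arrays and 6.75 to 7.21 in the S105A PE arrays. The PE hearts were above the untreated ones by a margin of 0.21 between the nearest arrays, less than the 0.25 that separated the lowest from the highest untreated heart. The difference was 0.65 in either genotype (SE 0.24, 1.57-fold), the smallest among the 9 genes in WT.

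Thbs4 gave 6.95 and 6.91 in arrays 1 and 2, 10.84 and 8.64 in arrays 3 and 4, 6.95 and 6.89 in arrays 5 and 6, and 9.92 and 8.53 in arrays 7 and 8. The 4 untreated hearts agreed to 0.06 log2 units, the narrowest range of any member, while the PE arrays of one genotype differed by 2.21 in WT and 1.39 in S105A. The difference was 2.81 in WT (SE 0.71, 7.01-fold) and 2.31 in S105A (SE 0.71, 4.94-fold). Within the family, then, Thbs1 and Thbs4, one from each subgroup, had the large PE differences, and Thbs2 and Thbs3 the small ones. These differences between genes were not tested.

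Sparc encodes the collagen-binding protein SPARC (osteonectin), which takes part in collagen maturation and was already high in untreated hearts on its own probe set. Its level was 12.18 and 11.95 in arrays 1 and 2, 13.53 and 12.55 in arrays 3 and 4, 12.01 and 11.99 in arrays 5 and 6, and 13.22 and 12.54 in arrays 7 and 8. The lowest PE heart exceeded the highest untreated heart by 0.36. The difference was 0.98 in WT (SE 0.34, 1.97-fold) and 0.88 in S105A (SE 0.34, 1.84-fold).

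Ccn2 encodes connective tissue growth factor, a target of TGF-beta and of the YAP and TEAD factors. It was measured at 9.85 and 10.49 in arrays 1 and 2, which differed by 0.64 and so were the widest untreated pair of any member. The WT PE arrays 3 and 4 had 13.17 and 11.66. In S105A the untreated arrays had 10.17 and 10.22 and the PE arrays 12.44 and 11.26. Each PE heart lay above each untreated heart, with differences of 2.24 in WT (SE 0.55, 4.72-fold) and 1.65 in S105A (SE 0.55, 3.14-fold).

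Fn1 stood at 9.67 and 9.39 in arrays 1 and 2, 13.38 and 11.60 in arrays 3 and 4, 9.36 and 9.43 in arrays 5 and 6, and 12.77 and 11.39 in arrays 7 and 8. The PE hearts were at least 1.72 log2 units above the untreated ones. The difference was 2.96 in WT (SE 0.62, 7.78-fold) and 2.68 in S105A (SE 0.62, 6.43-fold). The single probe set does not separate the splice forms of fibronectin.

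**Figure D2:**
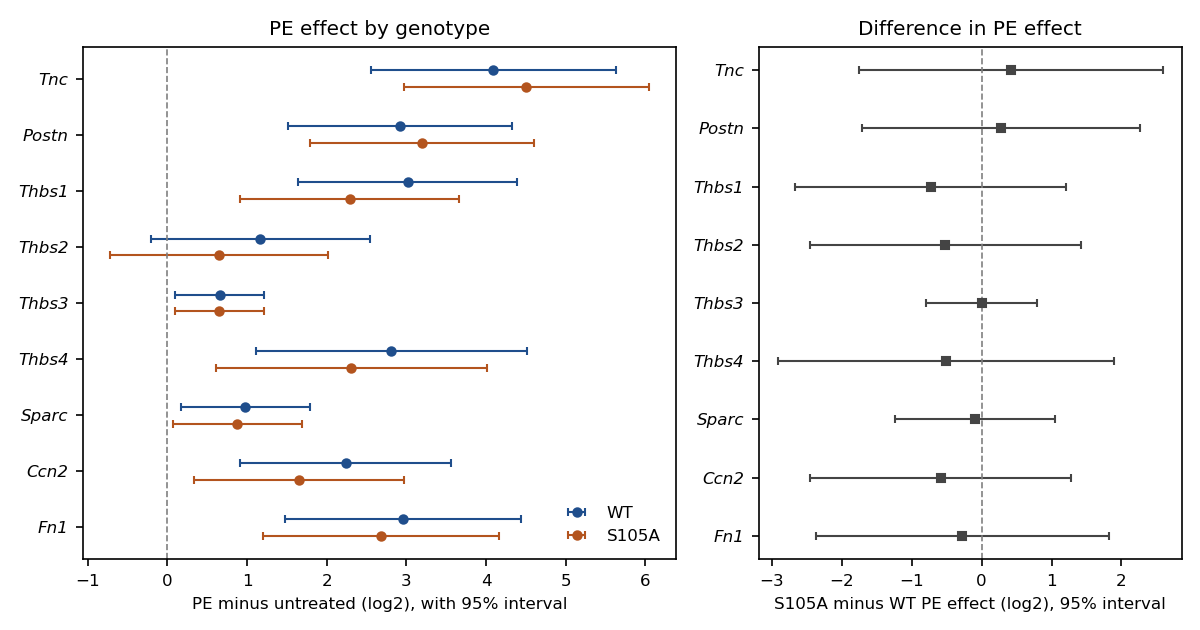
The left panel gives the PE minus untreated difference (x axis, log2) of each gene in WT (blue) and S105A (orange), and the right panel the S105A difference minus the WT difference. Points are limma estimates from 2 arrays per group and bars are 95% intervals; on the left only Thbs2 has intervals that cross 0, and on the right all 9 intervals cross 0.

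The first comparison was PE against untreated in WT hearts. None of the 9 genes passed a limma adjusted p of 0.05 over all genes, a threshold passed by 0.00502% of the 19938 genes. The adjusted p was 0.419 for 8 of them and 0.426 for Thbs2. At an unadjusted p under 0.05 there were 8 of the 9, all but Thbs2, against 11.7% of all genes. A descriptive rule, which asked for an unadjusted p under 0.01 together with a 1.5-fold or larger difference, was met on the higher side by Tnc, Postn, Thbs1, Thbs4, Ccn2 and Fn1, or 6 of 9, against 0.476% of all genes. The median difference was 2.81 log2 units, against -0.004 over all genes. Both WT PE arrays were above both WT untreated arrays for 9 of 9 members and for 22.7% of all genes, with arrays 4 and 2 level in Thbs2 (8.57 and 8.56). Counted in either direction, the descriptive rule was met by 0.818% of all genes with all arrays. It was met by 1 member and 0.597% of all genes without array 1, and by 2 members and 0.391% without array 2. The WT PE group held a lone array when array 3 or array 4 was left out, and these fits differed. Without array 3, 0 of 9 passed an adjusted p of 0.05 (0.0201% of all genes) and 5 met the descriptive rule (0.487%), with a median of 1.71. Without array 4, 9 of 9 passed an adjusted p of 0.05, as did 17.8% of all genes, and the median was 3.8.

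In S105A hearts, again 0 of 9 members and 0% of all genes passed an adjusted p of 0.05 by limma (adjusted p = 0.765 for 8 members and 0.789 for Thbs2). An unadjusted p under 0.05 was seen for the same 8 genes, against 5.86% of all genes. Tnc, Postn, Thbs1 and Fn1 met the descriptive rule, 4 of 9 against 0.266% of all genes on the higher side. The median was 2.29, against -0.02 over all genes, and the PE arrays were above the untreated ones for 9 of 9 members and 20.2% of genes. The 4 became 8 in a fit without array 3 or array 4, which are not in this comparison but enter the shared spread. The share of all genes that met the rule in either direction was then 1.56%, against 0.311% with all arrays. Without array 5, 6 or 7 the rule was met by 2 members, and by 0.145%, 0.176% and 0.115% of all genes.

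Averaged over the genotypes, 4 PE hearts were compared with 4 untreated hearts. By limma 0 of 9 passed an adjusted p of 0.05 (0.00502% of all genes did) and 8 of 9 had an unadjusted p under 0.05 (16.7% of all genes), with adjusted p values of 0.186 for Tnc, 0.266 for Postn, 0.275 for 6 genes and 0.312 for Thbs2. With a PE array left out, its group held a lone array and contributed no spread, so the estimates alone are given. The median of the 9 members was 2.01 without array 3 and 3.05 without array 4. It was 2.21 without array 7 and 2.9 without array 8, and 9 of 9 members stayed above 0 each time. With all arrays, the descriptive rule was met by 8 of 9, all but Thbs2, against 1.24% of all genes on the higher side. The estimates were 4.30 for Tnc (19.7-fold), 3.06 for Postn (8.35-fold), 2.82 for Fn1 (7.07-fold), 2.65 for Thbs1 (6.29-fold), 2.56 for Thbs4 (5.89-fold) and 1.95 for Ccn2 (3.85-fold). Sparc (0.93, 1.90-fold), Thbs2 (0.91, 1.88-fold) and Thbs3 (0.65, 1.57-fold) formed the lower end. In all 9 genes each of the 4 PE arrays was above each of the 4 untreated arrays, an order found in 6.70% of all genes, although in Thbs2 the nearest arrays were level (8.57 in array 4 and 8.56 in array 2). Tnc, Postn, Fn1, Thbs1, Thbs4 and Ccn2 differed by more than 2-fold in the averaged effect, a size that 0.948% of all genes reached on the higher side. The same 6 did so in S105A (0.757% of all genes), and these with Thbs2 in WT (1.37%).

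PE hearts of one genotype differed widely. Array 3 was above array 4 in 9 of 9 members (46.7% of all genes) and array 7 above array 8 in 9 of 9 (44.4%). This order was common among genes higher with PE and not particular to the members. All PE arrays were above all untreated arrays in 1336 genes, and in 1076 of these arrays 3 and 7 were also above arrays 4 and 8. The gap between arrays 3 and 4 ran from 0.64 for Thbs3 to 2.21 for Thbs4, and that between arrays 7 and 8 from 0.46 for Thbs3 to 1.98 for Tnc. Array 3 was the highest of the 8 arrays for 8 members, and array 7 for Tnc. The untreated arrays of a genotype were at most 0.64 apart.

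**Figure D3:**
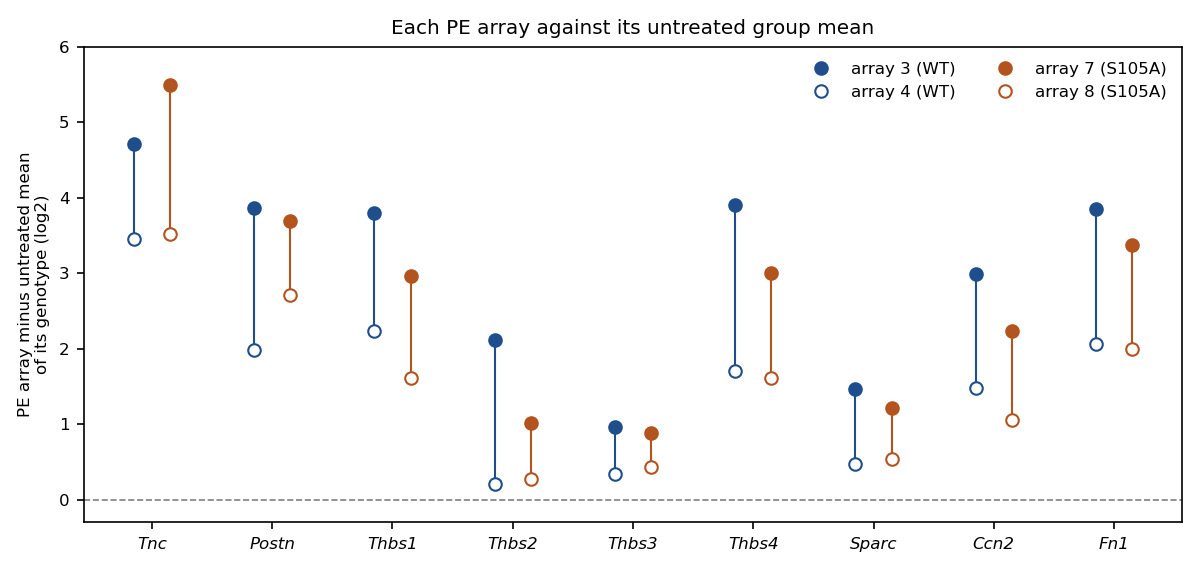
Level of each PE array minus the untreated mean of its genotype (y axis, log2) for the 9 genes (x axis), with WT in blue and S105A in orange. Filled points are arrays 3 and 7 and open points arrays 4 and 8, joined within a genotype; the open points lie below the filled ones in every gene and reach from 0.21 (Thbs2, array 4) to 3.52 (Tnc, array 8).

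Against the untreated mean of its genotype, Tnc was 3.45 higher in array 4 and 3.52 in array 8. For Postn these arrays were 1.98 and 2.71 higher, for Fn1 2.07 and 2.00, for Thbs4 1.71 and 1.61, for Thbs1 2.23 and 1.62, and for Ccn2 1.48 and 1.06. Sparc (0.48 and 0.54), Thbs3 (0.34 and 0.43) and Thbs2 (0.21 and 0.28) were less than 1 unit higher there. With arrays 3 and 7 left out, 6 members passed a limma adjusted p of 0.05 in the averaged effect, where 0.687% of all genes did. They were Tnc (3.49, adjusted p = 5.34e-05), Postn (2.34, 0.000581), Thbs4 (1.66, 0.000581), Fn1 (2.03, 0.000844), Thbs1 (1.92, 0.00200) and Ccn2 (1.27, 0.0401). Sparc (0.51, adjusted p = 0.0700), Thbs3 (0.38, 0.176) and Thbs2 (0.25, 0.524) did not pass. Each PE group then held a lone array, so these p values rest on the spread of untreated hearts and do not include the spread among PE hearts. The median of the 9 genes was 1.66 in place of 2.56.

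Genotype was compared first in untreated hearts. The differences, S105A minus WT, ran from -0.22 (Thbs1) to 0.13 (Thbs2), with a median of -0.03, and 0 of 9 had an unadjusted p under 0.05 by limma, against 4.96% of all genes. The 2 genotypes overlapped in each of the 9 genes, whereas S105A lay wholly above WT in 21.8% and wholly below in 22.7% of all genes. The number of members and of genes past an adjusted p of 0.05 was 0. The 95% interval of Tnc was -1.56 to 1.51 and that of Thbs3 -0.57 to 0.56, which leaves room for differences in either direction. The fit shares 1 spread per gene over the 4 groups, so these intervals and p values also carry the spread of the PE hearts. For Tnc the SD was 0.9 in WT PE and 1.4 in S105A PE, against 0.1 in WT untreated and 0.07 in S105A untreated hearts. The intervals therefore do not describe the spread among untreated hearts alone.

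With PE, S105A hearts had a median difference of -0.39 from WT hearts. Thbs1 was at -0.95 (SE 0.58), Ccn2 at -0.56 (SE 0.55), Thbs4 at -0.51 (SE 0.71), Fn1 at -0.41 (SE 0.62), Thbs2 at -0.39 (SE 0.58), Sparc at -0.16 (SE 0.34) and Thbs3 at -0.002 (SE 0.24). Tnc (0.39, SE 0.65) and Postn (0.24, SE 0.59) had the opposite sign. None had an unadjusted p under 0.05 by limma (2.68% of all genes did), the smallest being that of Thbs1 (unadjusted p = 0.144, adjusted p = 0.989). The shared spread also takes in the closely spaced untreated hearts, so these SEs and p values understate the spread among PE hearts. For Thbs4 the SD was 1.56 in WT PE and 0.98 in S105A PE, against 0.02 in WT untreated and 0.04 in S105A untreated hearts. In all 9 genes the PE arrays of the 2 genotypes overlapped, whereas S105A lay wholly above WT in 10.5% and wholly below in 13.0% of all genes. The direction changed with the PE array left out. The median was 0.48 without array 3, with 8 of 9 members above 0, and 0.18 without array 8, with 7 of 9. It was -1.30 without array 4 and -0.76 without array 7, with 0 of 9 above 0 in both, and -0.01 without arrays 3 and 7. Thbs1 stayed below 0 with any 1 array left out (-1.74 to -0.17).

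The difference in the PE effect between genotypes was tested as an interaction, S105A minus WT. It was -0.73 for Thbs1 (95% interval -2.67 to 1.21), -0.59 for Ccn2 (-2.45 to 1.28), -0.52 for Thbs2 (-2.46 to 1.42), -0.51 for Thbs4 (-2.91 to 1.90) and -0.28 for Fn1 (-2.37 to 1.82). It was -0.10 for Sparc (-1.24 to 1.05), -0.001 for Thbs3 (-0.80 to 0.80), 0.28 for Postn (-1.71 to 2.26) and 0.42 for Tnc (-1.76 to 2.59). By limma 0 of 9 members and 0% of all genes passed an adjusted p of 0.05, and 0 of 9 had an unadjusted p under 0.05 (2.42% of all genes). The direction changed with the PE array left out: without array 3 the median was 0.44 with 9 of 9 members above 0, without array 4 it was -1.17 with 0 of 9 above 0, without array 7 it was -0.88 with 0 of 9, and without array 8 it was 0.23 with 7 of 9. Without arrays 3 and 7 together it was 0.05. Among the members, the estimate was -1.47 for Thbs2 without array 4 and 0.73 for Postn without arrays 3 and 7. Each fit without a PE array left a lone array in its group, which contributes no spread. The intervals include a PE effect in S105A more than 2-fold smaller than in WT for every gene but Thbs3, so equal effects were not shown.

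For each gene, the 3 most similar genes were those with the highest Pearson correlation over the 8 arrays, among 9969 genes with a mean at or above the median. The arrays fall into PE and untreated ones and share the gap between arrays 3 and 4, so the coefficients are descriptions of these 8 arrays. Thbs4 was closest to the fibrillar collagen genes Col1a1 (r = 0.999) and Col1a2 (r = 0.999) and to Fstl1 (r = 0.997). Fn1 was closest to Col3a1 (r = 0.997), Col1a1 (r = 0.996) and the macrophage-expressed gene Ms4a7 (r = 0.994). Sparc was closest to the collagen genes Col5a2 (r = 0.997) and Col14a1 (r = 0.996) and to Emp1 (r = 0.996). Thbs1 had Cyth4 (r = 0.995), Col3a1 (r = 0.992) and Lox (r = 0.992), and Ccn2 had Lox, the collagen-crosslinking lysyl oxidase (r = 0.996), Ncf1 (r = 0.991) and Ccdc80 (r = 0.991). Postn had Sprr1a (r = 0.991), Ugdh (r = 0.990) and Ms4a7 (r = 0.985), while Tnc had Postn (r = 0.985), Gatm (r = 0.983) and Ugdh (r = 0.982). Thbs2 was nearest to Col5a3 (r = 0.994), Zfp354c (r = 0.992) and Tagln (r = 0.991), a smooth muscle gene counted below among the activated fibroblast markers. Thbs3 was nearest to the proteoglycan gene Lum (r = 0.995), Cd300c2 (r = 0.991) and Nmrk2 (r = 0.990).

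Other genes of this system were taken from 4 lists, and in none of them did a gene pass an adjusted p of 0.05 in the averaged PE effect. Of 21 measured relatives of the matricellular proteins, 2 met the descriptive rule on the higher side and 0 on the lower, with a median of 0.15. They were Fstl1, a secreted relative of SPARC (1.94, SE 0.44), and Tgfbi, a paralogue of periostin (0.94, SE 0.16). Ccn1, a paralogue of Ccn2 (0.86, SE 0.25), and Ecm1 (0.92, SE 0.29) came next without meeting it. Paralogues of the members, named after their values were seen, included Comp, the fifth thrombospondin (0.71, SE 0.25), Sparcl1 (0.001, SE 0.05) and the tenascin genes Tnxb (-0.41, SE 0.38), Tnr (0.03, SE 0.06) and Tnn (0.02, SE 0.07). Among the measured tenascin genes, a difference above 2-fold was thus seen in Tnc alone.

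Among 20 receptors for these proteins the median was 0.32, and 2 met the rule on the higher side. They were Stab1, a scavenger receptor that takes up SPARC (0.79, SE 0.20), and the endocytic receptor gene Lrp1 (0.72, SE 0.20), which was sixth by p value. Tlr4, a receptor for tenascin-C (0.57, SE 0.11), the collagen receptor gene Ddr2 (0.25, SE 0.06) and Ptprz1 (-0.38, SE 0.08) had smaller p values but differed by less than 1.5-fold. In the list of 19 TGF-beta, TEAD and SRF genes the median was 0.15 and 0 met the rule. The ligand genes Tgfb2 (1.58, SE 0.49) and Tgfb3 (1.24, SE 0.49) had the largest differences, the receptor genes Tgfbr2 and Tgfbr1 had 0.52 (SE 0.13) and 0.59 (SE 0.21). Tgfb1 differed by 0.50 (SE 0.21), Yap1 by 0.02 (SE 0.08) and Tead1 by 0.02 (SE 0.06).

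The fibril-forming partners differed by about as much as the members. Of 10 measured collagens and their enzymes, 10 were higher with PE and 8 met the rule, with a median of 2.01. Lox was 3.40 higher (SE 0.64), Col1a1 2.38 (SE 0.45), Col1a2 2.20 (SE 0.48) and Col3a1 2.09 (SE 0.36).

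**Figure D4:**
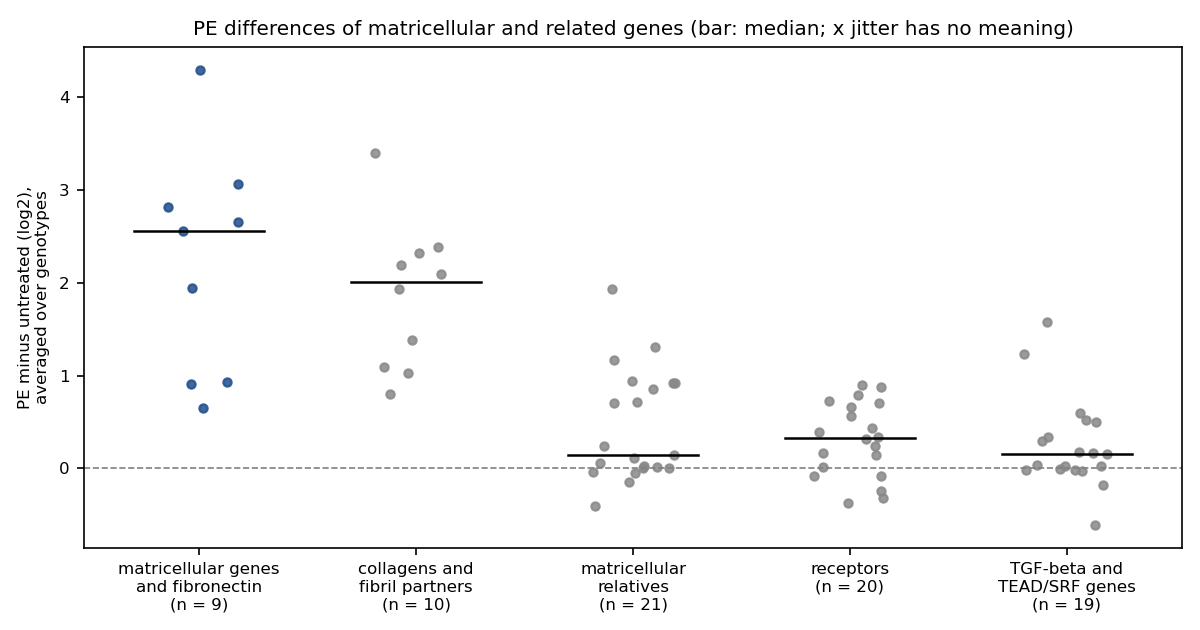
PE minus untreated difference averaged over the genotypes (y axis, log2) for the 9 matricellular and fibronectin genes (blue) and for 4 lists of related genes (grey); each point is a gene, bars are medians and sideways position within a column has no meaning. The medians are 2.56 for the 9 genes, 2.01 for collagens and fibril partners, 0.15 for matricellular relatives, 0.32 for receptors and 0.15 for TGF-beta and TEAD/SRF genes.

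Summed levels of macrophage and fibroblast markers were higher in the PE arrays than in the untreated arrays of the same genotype. Those of activated fibroblasts overlapped in S105A, with 3624 in PE array 8 and 3967 in untreated array 5. RNA from a whole tissue cannot tell more cells of a type from more RNA per cell. RMA gives no value of 0, so no marker was listed at 0. The 10 macrophage markers had a summed linear level of 3559 to 4408 in WT untreated, 5529 to 8932 in WT PE, 3120 to 3271 in S105A untreated and 4869 to 7542 in S105A PE, and 9 of 10 met the descriptive rule in the averaged effect. The 10 fibroblast markers summed to 13810 to 16004, 16112 to 18570, 13416 to 13922 and 16377 to 18929 in the same order, with 2 of 10 meeting the rule. These were Mfap5 (2.13, SE 0.45) and Lum (1.06, SE 0.27), whereas Pdgfra (0.36, SE 0.09) and Tcf21 (0.18, SE 0.18) differed less. Gsn (-0.64, SE 0.30) and Scara5 (-0.33, SE 0.22) of the same list had the opposite sign. The 7 markers of activated fibroblasts summed to 3880 to 3974, 4255 to 8558, 3396 to 3967 and 3624 to 5134, with array 3 the highest and 1 of 7 meeting the rule, Cthrc1 (2.42, SE 0.66). Acta2 differed by 0.05 (SE 0.10).

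Markers of further cell types were read in the same way. For the 8 valve, tendon and cartilage markers the sums were 751 to 770 in WT untreated, 1224 to 2412 in WT PE, 646 to 713 in S105A untreated and 803 to 1141 in S105A PE, and 1 of 8, Prg4 (0.91, SE 0.25), met the rule. The 5 measured platelet markers summed to 695 to 817, 608 to 641, 709 to 740 and 676 to 681, and Ppbp, a platelet chemokine gene, met the rule on the lower side (-0.67, SE 0.13). Pf4, also a platelet chemokine gene, had the opposite sign (0.29, SE 0.13), the only 1 of the 5 above 0. Endothelial markers summed to 9838 to 11116, 7619 to 9275, 9386 to 9534 and 8568 to 9711, and the pericyte and smooth muscle markers to 15775 to 15841, 15691 to 19018, 14229 to 14877 and 15539 to 16417. In both lists 0 of 8 met the rule. The part of these cell types in the differences of the 9 genes was not tested.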

How the data were processed

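Biotin-labelled RNA of 8 hearts was read on 8 arrays, per the labels' protocols. The deposited values are on the log2 scale and were made with RMA, a step named in the submitters' processing notes; the RMA version, probe set definitions and any genome build are not stated there. RMA gives all arrays nearly the same intensity distribution, which would hide a shift of the whole transcriptome.

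The table had 35557 rows. The platform annotation gave 21789 of them a lone gene symbol, 1621 more than one and 12147 no symbol. Genes were taken from the first kind, by the probe set of highest mean for the 999 genes with several, and 19938 genes were tested. Group means were fitted over the 8 arrays using limma 3.58.1 (R 4.3.3), with 4 residual and 2.74 prior degrees of freedom. P values are two-sided, and Benjamini-Hochberg adjustment ran over all genes of a contrast. The fit was also run on simulated data in which a gene had the same spread in every group. The 9 genes did not have this, as with Thbs4 (SD 0.02 in WT untreated and 1.56 in WT PE hearts). The simulation therefore does not show how the fit performs on these hearts. By their titles the 2 arrays of a group are separate individuals.

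The members, the lists of related and marker genes and the alternatives were chosen with earlier results of these data known. Named were all members, up to 4 genes per related list by p value, and the 3 genes most like each member; marker genes, Lrp1, Tgfb1, Yap1, Tead1 and paralogues were named after their values were seen. Promoters are RefSeq's. Figures were drawn with matplotlib 3.10.9.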

Additional observations from a re-analysis of the deposited data

How the results depend on the processing

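All 9 members kept a positive PE difference in WT, in S105A and averaged under each alternative run. The alternatives dropped the 40% of genes of lowest mean level, averaged a gene's probe sets, tested every row, normalized by quantiles once more, let the variance follow the level (trended, robust), weighted arrays, fitted just the 4 arrays of a comparison, and left out each array in turn or arrays 3 and 7. No paired analysis was possible because the titles number the 8 individuals without a number shared between groups.

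At an adjusted p of 0.05 by limma, the members past the threshold were 0 in all settings except that leaving out 1 array gave 0 to 9 in WT and 0 to 9 averaged (9 without array 4 in both, where 17.8% and 20.7% of all genes passed, and 1 without array 3 or 8 in the averaged effect), and that leaving out arrays 3 and 7 gave 5 in WT, 5 in S105A and 6 averaged (0.291%, 0.15% and 0.687% of all genes). A group reduced to 1 array contributes no spread. Under the descriptive rule, leaving out 1 array gave 1 to 9 in WT, 2 to 8 in S105A and 6 to 9 averaged; the counts of 9 came without array 4, where 12.7% and 7.48% of all genes met the rule, against 0.818% and 1.34% with all arrays. The fit of only the 4 arrays compared gave 3 in WT (0.461% of all genes) and 8 in S105A (1.17%), and array weights gave 8 in S105A (0.993%), where 0.311% met the rule in the fit reported. The genotype difference with PE had 0 to 2 members with 1 array left out (2 without array 4, with 5.75% of all genes) and 2 without arrays 3 and 7 (0.532%), and the difference in PE effect 0 to 1 (1 without array 4, with 3.89%) and 1 (0.647%).

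Genotype differences of most members changed sign with the array left out; for Thbs1 they did so only in the difference in PE effect, and stayed below 0 with PE (-1.74 to -0.17) and without PE (-0.40 to -0.05). With 1 array left out, the difference in PE effect ran from -0.57 to 1.41 for Tnc, -0.67 to 1.22 for Postn, -1.51 to 0.06 for Thbs1, -1.47 to 0.44 for Thbs2, -0.32 to 0.32 for Thbs3, -1.61 to 0.60 for Thbs4, -0.59 to 0.39 for Sparc, -1.34 to 0.17 for Ccn2 and -1.17 to 0.61 for Fn1. With PE, the genotype difference ran from -0.60 to 1.38 for Tnc, -0.71 to 1.18 for Postn, -1.35 to 0.57 for Thbs2, -0.32 to 0.32 for Thbs3, -1.62 to 0.59 for Thbs4, -0.65 to 0.33 for Sparc, -1.32 to 0.19 for Ccn2 and -1.30 to 0.48 for Fn1. Without PE it ran from -0.10 to 0.04 for Tnc, -0.16 to 0.09 for Postn, -0.08 to 0.33 for Thbs2, -0.13 to 0.13 for Thbs3, -0.04 to 0.02 for Thbs4, -0.18 to 0.05 for Sparc, -0.30 to 0.34 for Ccn2 and -0.28 to 0.00 for Fn1. A further quantile normalization turned Postn without PE to 0.02 and the Thbs3 difference in PE effect to 0.03. Without arrays 3 and 7, Thbs2 and Thbs3 with PE turned to 0.20 and 0.09, and the differences in PE effect of Thbs2, Thbs3 and Sparc to 0.07, 0.09 and 0.05. The cause of these turns was not tested beyond which arrays were left out.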
